A study of Homo sapiens with 34 samples.

Results

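Collagen genes, taken as every gene whose symbol reads COL, a number, A and a number, numbered 44 among the 26336 genes of the count table. By the protein they encode they were 11 fibrillar chains, 10 fibril-associated chains, 6 basement membrane chains (type IV), 5 beaded filament chains (type VI), 4 transmembrane collagens, 3 short-chain network chains, 2 multiplexins, the anchoring fibril collagen COL7A1, and COL26A1 and COL28A1, which stand outside these classes. They were followed in poly(A) RNA of 4 human prostate cell lines, 34 libraries in 17 groups. A group held 2 libraries, except 3 for RWPE on ACP with androgen and 1 for VCaP on plastic in stripped serum.

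RWPE is a non-tumorigenic prostate epithelial line. LNCaP is labelled as a lymph node metastasis, and the series text uses it for early adenocarcinoma. The labels give VCaP and MDAPCa2a as bone metastases. Each group grew either on plastic or on amorphous calcium phosphate (ACP), a mineral coating that stands in for bone. Control medium was the line's own: serum-free keratinocyte medium for RWPE and medium with fetal bovine serum for the other lines. Stripped medium held serum treated with charcoal and dextran, which removes steroids, and androgen medium was stripped medium with an androgen at a labelled 100 mM, called DHT in the titles and testosterone in the treatment text. RWPE had plastic control, ACP control and ACP androgen groups. LNCaP and VCaP had all 5 groups: plastic control, plastic stripped, ACP control, ACP stripped and ACP androgen. MDAPCa2a lacked ACP control, and its plastic, but not its ACP, carried an FNC coating, so for this line ACP and the lack of FNC cannot be told apart. Plastic control is labelled continuous culture and every other group day 4. All 4 lines share the antibiotics of their media, and each is a single established line, so a difference between lines is a difference between these lines only. The labels do not say that replicates came from separate cultures, so the p-values measure only the spread between these libraries, which may be technical.

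Collagens are built from 3 chains wound into a triple helix, either of 1 gene product or of several partner chains. Fibrillar collagens form the cables of connective tissue and bone, type IV chains form the sheet of the basement membrane under epithelia, and type VI forms beaded filaments in the matrix next to it. Basal prostate epithelial cells anchor to their basement membrane through hemidesmosomes, whose transmembrane collagen is COL17A1, and through anchoring fibrils of COL7A1, while luminal cells form the layer above them.

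Library totals ran from 15440141 to 44779246 reads. Levels are counts-per-million values (CPM) after TMM scaling over all 34 libraries, and ± beside a level is the SD over the libraries of a group (n = 2, or 3 for RWPE on ACP with androgen). A gene counted as detected in a group above 3 reads summed over its libraries, which was 0.0324 to 0.144 CPM depending on the group. This limit covers counting error only. A log2 change is given with its standard error (SE) and an edgeR quasi-likelihood p adjusted over all genes tested, and 0.05 was the threshold. The line labels were checked on marker genes: the summed level of 5 basal epithelial markers was 3727 to 16996 CPM in RWPE libraries and 6.94 to 54.0 CPM in the others, and that of 5 luminal prostate markers was 22.5 to 63.1 CPM in RWPE and 1055 to 16625 CPM in the others.

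Of the 44 collagen genes, 32 had a mean of at least 1 CPM in some group, 16 were above the limit in all 17 groups, and 1, COL19A1, was above it in none. VCaP had 29 members with a mean of at least 1 CPM, RWPE 22, LNCaP 20 and MDAPCa2a 17. At a mean of 10 CPM or more the numbers were 9, 12, 6 and 2. Among the 32, the highest group was one of RWPE for 11, of VCaP for 14, of LNCaP for 6 and of MDAPCa2a for 1. The levels of all members added to 2150 CPM in RWPE plastic control, 1602 in RWPE ACP control and 828 in RWPE ACP androgen. In the tumour lines the sums lay lower, at 234 to 521 CPM in VCaP, 229 to 460 in LNCaP and 137 to 197 in MDAPCa2a. The number of members at or under the limit was lowest in VCaP plastic control with 8 and highest in MDAPCa2a ACP stripped with 25. The limit is a fixed number of reads, so this number depends on depth as well as on level. Library totals were 35474166 and 42253685 reads in the first group and 15440141 and 16447541 in the second. In every line the plastic control libraries were the deepest. Their groups had 8 to 12 members at or under the limit, and the other groups 12 to 25. The part of depth in this was not tested. The heat map of members by library gives these levels line by line.

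**Figure D1:**
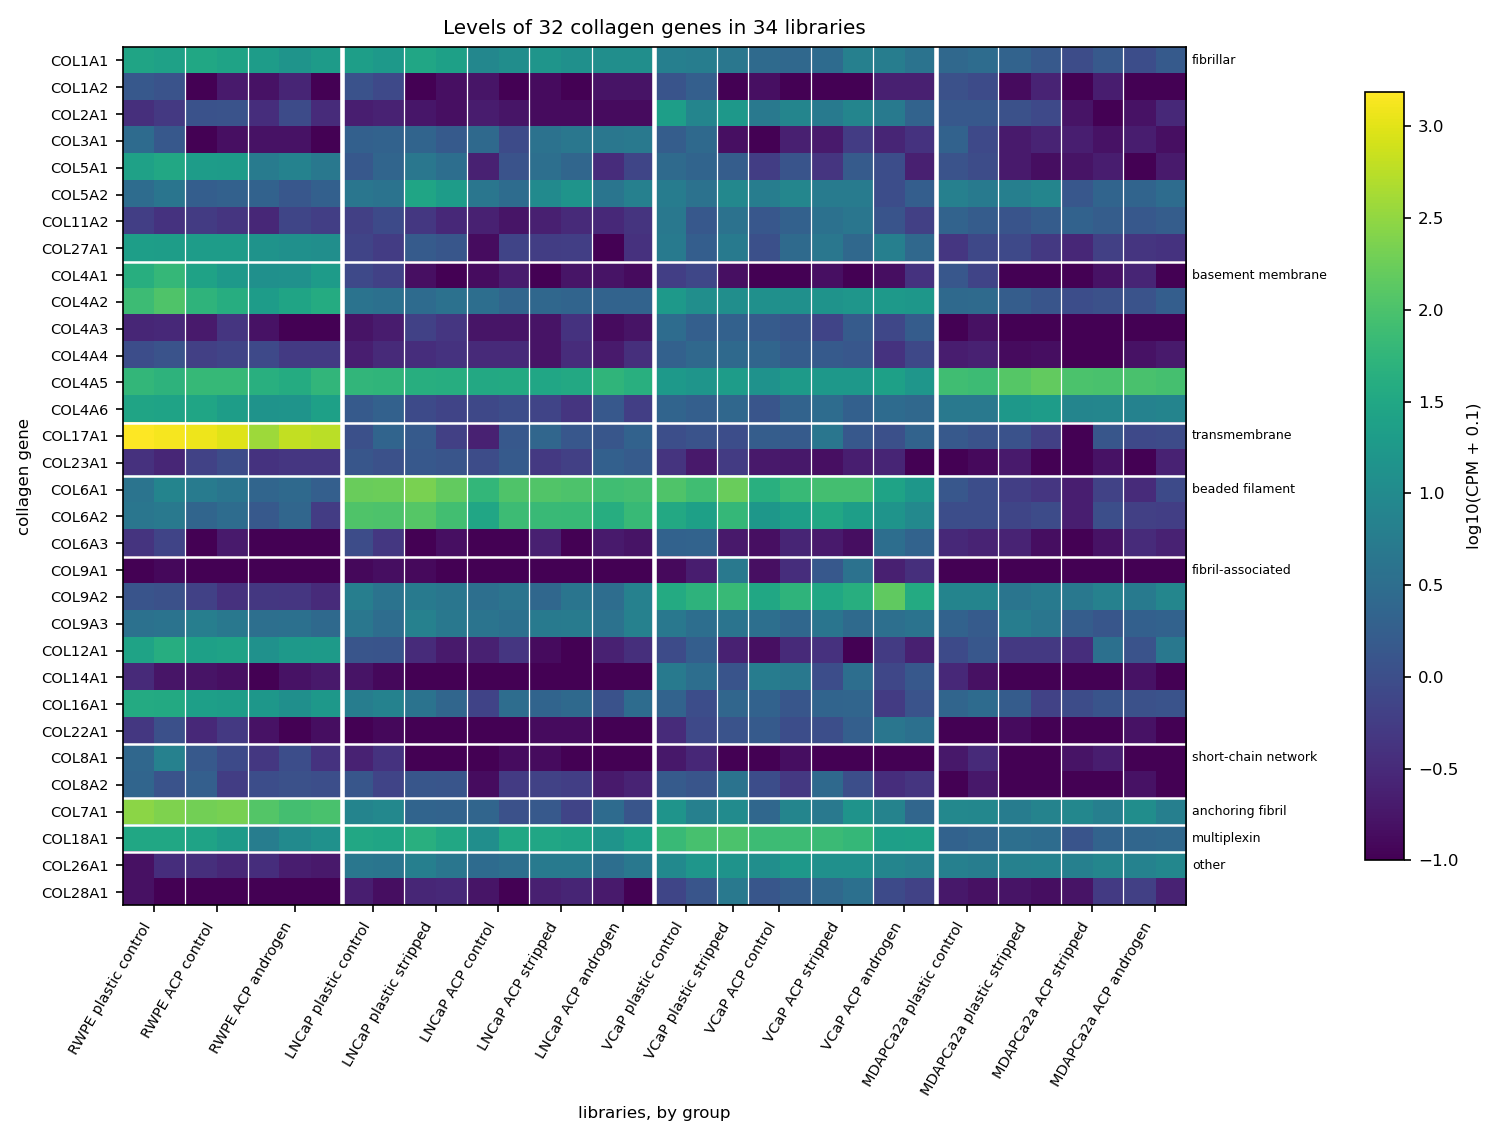
Levels of the 32 collagen genes with a group mean of at least 1 CPM, in rows by class, in the 34 libraries, in columns by line and group; the colour is log10 of CPM plus 0.1. COL17A1 and COL7A1 stand out in the RWPE columns, COL6A1 and COL6A2 in the LNCaP and VCaP columns, and COL9A2 in the VCaP columns.

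COL17A1, the transmembrane collagen of hemidesmosomes, was the member with the widest range between lines. Its level was 1538 and 1361 CPM in RWPE plastic control, 1199 and 959 in ACP control and 377, 646 and 565 in ACP androgen. In LNCaP libraries it ran from 0.143 to 2.30 CPM, in VCaP from 0.865 to 4.24 and in MDAPCa2a from 0 to 1.40. All 7 RWPE libraries were therefore above all 27 others. In the androgen medium on ACP, a condition that all lines share, COL17A1 was lower than in RWPE by a log2 difference of -8.36 ± 0.68 (SE, adjusted p = 9.49e-11) in LNCaP, -8.48 ± 0.69 (SE, adjusted p = 9.94e-11) in VCaP and -9.40 ± 0.74 (SE, adjusted p = 6.17e-11) in MDAPCa2a. The highest group mean of COL17A1 was 0.123% of that in RWPE for LNCaP, 0.192% for VCaP and 0.0854% for MDAPCa2a. These shares are under 0.5%, the size below which reads carried over between libraries were taken as possible, and their part in the low levels was not tested.

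The other transmembrane collagens were low everywhere. COL23A1 was highest in LNCaP ACP androgen (1.83 and 1.47 CPM) and was detected in 13 groups. COL13A1 reached a mean of 0.399 CPM in LNCaP plastic control and was detected in 8 groups, and COL25A1 reached 0.350 CPM in RWPE plastic control and was detected in 4. COL23A1 was higher in LNCaP than in RWPE on ACP with androgen, by 2.25 ± 0.63 (SE, adjusted p = 0.00284) on the log2 scale.

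COL7A1, which forms the anchoring fibrils that tie the basement membrane to the matrix below, was also highest in RWPE. It stood at 287 and 242 CPM in RWPE plastic control, 198 and 209 in ACP control and 118, 87.3 and 94.7 in ACP androgen. The other lines ran from 0.630 to 8.74 CPM in LNCaP, 2.28 to 14.6 in VCaP and 5.54 to 11.1 in MDAPCa2a, so these 3 lines overlapped with each other and none reached RWPE. Against RWPE on ACP with androgen the log2 difference was -5.64 ± 0.60 (SE, adjusted p = 1.1e-08) in LNCaP, -4.37 ± 0.55 (SE, adjusted p = 2.03e-07) in VCaP and -3.52 ± 0.53 (SE, adjusted p = 2.71e-06) in MDAPCa2a.

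The basement membrane chains are encoded in pairs that face away from each other across a shared start region. These pairs are COL4A1 with COL4A2, COL4A3 with COL4A4 and COL4A5 with COL4A6. The promoter windows of the first and last of these pairs and of COL17A1 are printed. These genes differ between the lines while each pair shares its start region. Each window covers 250 bases before and 50 after the start (RefSeq, GRCh38.p14), 5′ to 3′ on the gene's strand. Capitals mark any of 3 promoter motifs on either strand. The TATA box was searched as TATAAA. The GC box was searched as GGGCGG. The CCAAT box was searched by the letters of its name.
COL4A1, chr13:110307108-110307407, minus strand: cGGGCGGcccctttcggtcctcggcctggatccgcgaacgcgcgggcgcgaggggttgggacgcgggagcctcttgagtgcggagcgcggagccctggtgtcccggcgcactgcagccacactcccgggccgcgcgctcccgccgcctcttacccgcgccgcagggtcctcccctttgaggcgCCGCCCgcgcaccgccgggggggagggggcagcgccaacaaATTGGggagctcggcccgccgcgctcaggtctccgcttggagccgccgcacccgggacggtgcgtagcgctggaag
COL4A2, chr13:110307034-110307333, plus strand: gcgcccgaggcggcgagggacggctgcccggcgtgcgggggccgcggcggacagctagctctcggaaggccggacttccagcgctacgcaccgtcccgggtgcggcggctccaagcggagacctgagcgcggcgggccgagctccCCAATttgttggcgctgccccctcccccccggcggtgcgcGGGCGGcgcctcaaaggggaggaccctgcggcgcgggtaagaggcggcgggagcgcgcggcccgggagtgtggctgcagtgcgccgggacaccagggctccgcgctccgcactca
COL4A5, chrX:108439588-108439887, plus strand: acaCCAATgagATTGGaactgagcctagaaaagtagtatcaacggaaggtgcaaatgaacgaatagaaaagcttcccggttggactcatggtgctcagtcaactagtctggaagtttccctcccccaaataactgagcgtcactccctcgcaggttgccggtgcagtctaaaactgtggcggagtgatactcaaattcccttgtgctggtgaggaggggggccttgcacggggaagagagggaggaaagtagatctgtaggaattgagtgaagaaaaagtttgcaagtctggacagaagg
COL4A6, chrX:108439409-108439708, minus strand: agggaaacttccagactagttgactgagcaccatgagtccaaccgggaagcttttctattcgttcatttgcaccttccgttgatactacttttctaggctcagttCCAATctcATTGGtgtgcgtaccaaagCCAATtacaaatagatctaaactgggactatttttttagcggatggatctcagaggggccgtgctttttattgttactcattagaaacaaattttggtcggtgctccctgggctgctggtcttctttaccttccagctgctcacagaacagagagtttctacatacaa
COL17A1, chr10:104085831-104086130, minus strand: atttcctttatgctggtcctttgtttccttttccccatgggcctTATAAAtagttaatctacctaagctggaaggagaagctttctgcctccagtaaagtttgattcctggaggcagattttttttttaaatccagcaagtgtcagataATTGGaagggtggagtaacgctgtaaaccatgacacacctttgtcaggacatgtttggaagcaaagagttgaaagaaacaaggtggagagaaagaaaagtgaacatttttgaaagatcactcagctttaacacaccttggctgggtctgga

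The starts of COL4A1 and COL4A2 lie 127 bases apart and their windows share 226 bases, while the starts of COL4A5 and COL4A6 lie 380 bases apart and share 121. The GC content was 76.7% and 77.7% for the COL4A1 and COL4A2 windows, against 49.3%, 43.7% and 40.7% for COL4A5, COL4A6 and COL17A1 and a median of 58.7% over all 35116 promoters of the table. COL4A1 and COL4A2 held the GC box and the CCAAT box, COL4A5 and the printed COL4A6 window the CCAAT box alone of the 3, and COL17A1 the TATA box and the CCAAT box. COL4A6 has another start in the table, with a window at chrX:108438373-108438672 that does not overlap the COL4A5 window and holds a GC box and no CCAAT box. RefSeq windows were found for 32 of the 44 members, 44 windows in all. A TATA box was in 8 of the 44 windows against 11.5% of all promoters, a GC box in 24 against 45.0%, and a CCAAT box in 14 against 34.6%. AGAACA, the hexamer at the core of androgen response elements, was in 5 of 44 windows of 4 genes (COL28A1, COL4A6, COL5A1 and COL9A1) against 14.8% of all. A match describes letters and is not a binding site.

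COL4A1 and COL4A2, which join into the type IV trimer found in nearly all basement membranes, were both highest in RWPE but did not keep 1 ratio across the lines. COL4A1 was 42.6 and 61.2 CPM in RWPE plastic control, 26.1 and 18.5 in ACP control and 12.6, 12.9 and 19.8 in ACP androgen. In the other lines it was 0.496 to 1.25 CPM in the 6 plastic control libraries and 0 to 0.307 CPM in all others. COL4A2 was 75.0 and 106, 52.0 and 40.0 and 20.3, 28.3 and 37.4 CPM in the same RWPE groups, and 11.6 to 18.3 CPM in VCaP, 2.06 to 3.78 in LNCaP and 0.890 to 2.70 in MDAPCa2a. Every VCaP library thus held COL4A2 at several times the LNCaP and MDAPCa2a level with little or no COL4A1.

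Per kilobase of transcript, COL4A2 stood 1.78 to 2.09 times above COL4A1 in the 3 RWPE groups. In VCaP the ratio was 25.3 in plastic control, on 45 COL4A1 reads, and 100.2 in ACP androgen, on 8 reads, while ACP control had 0 COL4A1 reads beside 549 of COL4A2. In LNCaP it was 5.65 in plastic control and 38.5 in ACP control, on 60 and 4 COL4A1 reads. Antisense genes overlap COL4A2 and the use of strand in counting is not stated, so reads of both cannot be told apart. The antisense gene COL4A2-AS1 was itself at no more than 0.169 CPM in any group. Against RWPE on ACP with androgen, COL4A1 was lower by -8.10 ± 0.70 (SE, adjusted p = 7.11e-10) in LNCaP, -6.40 ± 0.61 (SE, adjusted p = 4.07e-09) in VCaP and -7.47 ± 0.70 (SE, adjusted p = 3.37e-09) in MDAPCa2a, on 3, 8 and 3 reads in the lower group. COL4A2 was lower by -3.79 ± 0.29 (SE, adjusted p = 3.25e-11) in LNCaP and -4.37 ± 0.31 (SE, adjusted p = 1.11e-11) in MDAPCa2a. In VCaP its difference was -0.74 ± 0.24 (SE, adjusted p = 0.00909), a call that was lost without RWPE ACP androgen replicate 3 or VCaP ACP androgen replicate 2, where the log2 difference came to between -0.87 and -0.41 over all libraries left out in turn.

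COL4A5 and COL4A6, chains of the basement membrane of some epithelia, kept a different order. COL4A5 was highest in MDAPCa2a, at 119 and 149.6 CPM in plastic stripped, 101 and 97.3 in ACP stripped, 95.1 and 90.9 in ACP androgen and 80.6 and 75.3 in plastic control. RWPE libraries ran from 37.9 to 64.7 CPM and LNCaP libraries from 29.9 to 56.4, and these 2 lines overlapped. VCaP libraries were lower, at 13.3 to 24.0 CPM. On ACP with androgen the log2 difference from RWPE was 0.99 ± 0.18 (SE, adjusted p = 3.95e-05) in MDAPCa2a, -1.23 ± 0.19 (SE, adjusted p = 4.58e-06) in VCaP and 0.07 ± 0.18 (SE, adjusted p = 0.762) in LNCaP, so it was higher in MDAPCa2a, lower in VCaP and within its error in LNCaP.

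COL4A6 was 27.7 and 26.4 CPM in RWPE plastic control, 29.3 and 21.0 in ACP control and 14.1, 14.4 and 23.9 in ACP androgen. MDAPCa2a had 16.7 and 20.5 CPM in plastic stripped, within the RWPE range, and 4.85 to 8.19 CPM in its other libraries. LNCaP ran from 0.350 to 1.88 CPM and VCaP from 1.17 to 2.93. Per kilobase, COL4A5 exceeded COL4A6 by 2.12 to 2.75 times in RWPE, 7.57 to 10.4 times in VCaP, 7.52 to 16.7 times in MDAPCa2a and 34.7 to 68.0 times in LNCaP. LNCaP thus held COL4A5 near the RWPE level with COL4A6 lower by -4.25 ± 0.38 (SE, adjusted p = 5.55e-10) on ACP with androgen. The plot of partner chains per kilobase shows the ratios group by group.

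COL4A3 and COL4A4, partners of COL4A5 in the trimer of kidney and lung basement membranes, were low. COL4A3 was highest in VCaP, where libraries ran from 0.634 to 2.95 CPM, against at most 0.539 in any other line. COL4A4 reached 2.59 CPM in VCaP plastic stripped. In VCaP against RWPE on ACP with androgen, 52 COL4A3 reads stood against 1, a ratio of 62.4 with an exact 95% counting interval of 10.7 to 2513.

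**Figure D2:**
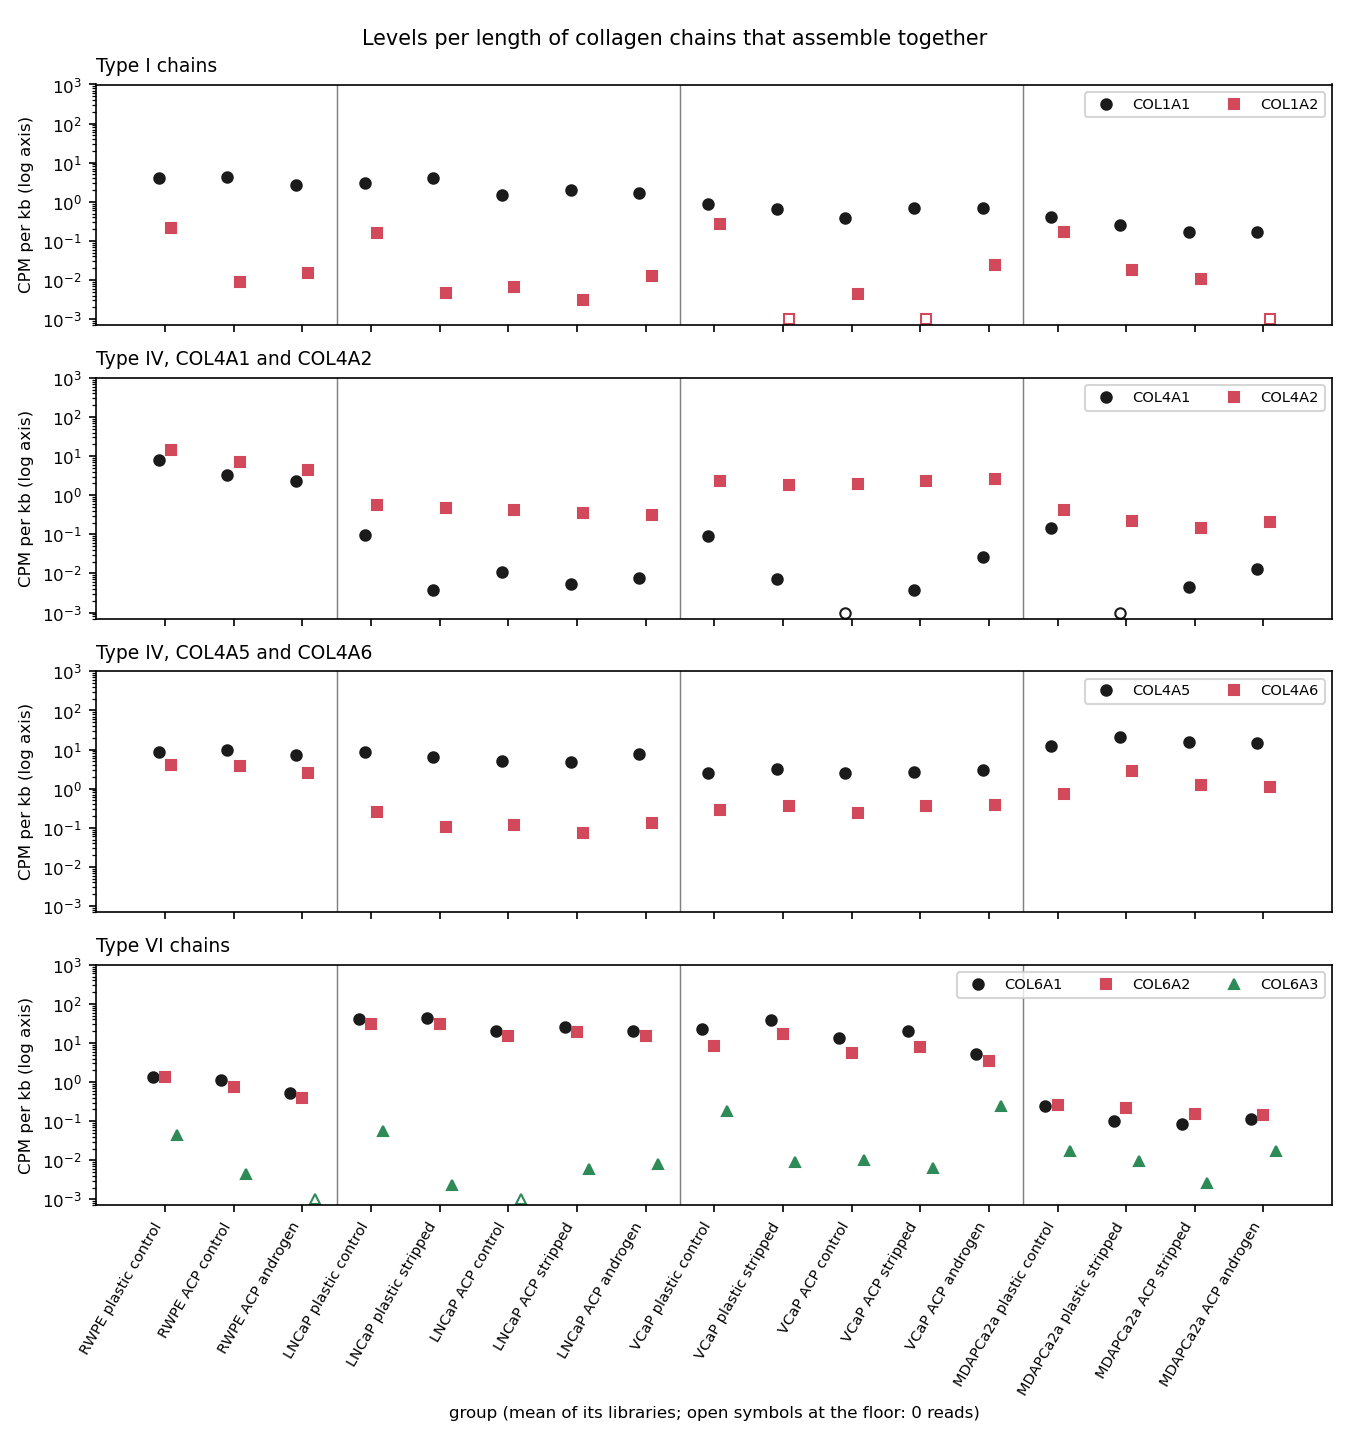
Mean level in CPM per kilobase of transcript, on a log axis, of partner chains in the 17 groups, with 1 panel per partnership: COL1A1 and COL1A2, COL4A1 and COL4A2, COL4A5 and COL4A6, and COL6A1, COL6A2 and COL6A3. Open symbols lie at the floor of the axis and stand for 0 reads. COL4A1 and COL4A2 lie 1.78 to 2.09 times apart in RWPE and far apart in VCaP, and COL6A1 and COL6A2 lie close together in LNCaP and in RWPE.

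Of the fibrillar chains, COL1A1, the main chain of type I collagen of bone and skin, was detected in all 17 groups. It was 28.2 and 25.2 CPM in RWPE plastic control, 31.5 and 26.3 in ACP control and 20.3, 14.3 and 19.7 in ACP androgen. LNCaP ran from 8.51 to 29.5 CPM and overlapped RWPE, VCaP ran from 2.51 to 6.68 and MDAPCa2a from 0.827 to 2.95. Its partner COL1A2 was at or above 0.750 CPM in the 8 plastic control libraries and at or below 0.176 CPM in the 26 others. Per kilobase, COL1A1 stood 18.2 times above COL1A2 in RWPE plastic control and 202 times above it in RWPE ACP androgen, on 91 and 4 COL1A2 reads. In plastic control the ratio was 2.48 in MDAPCa2a and 3.32 in VCaP, and in MDAPCa2a plastic stripped it was 15.4, on 5 COL1A2 reads. On ACP with androgen, COL1A1 differed from RWPE by -1.91 ± 0.30 (SE, adjusted p = 4.4e-06) in VCaP and -3.98 ± 0.35 (SE, adjusted p = 6e-10) in MDAPCa2a. For LNCaP the difference was -0.64 ± 0.28 (SE, adjusted p = 0.044), which was lost in a fit without plastic control libraries and without any of RWPE ACP androgen replicate 1 or 3 or either LNCaP library, where the value over libraries left out ran from -0.69 to -0.47.

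COL5A1 and COL5A2, which set the width of type I fibrils, differed in the line that held most of each. COL5A1 was 24.6 and 31.8 CPM in RWPE plastic control, 20.3 and 19.8 in ACP control and 5.45, 7.17 and 4.65 in ACP androgen, and 0 to 4.41 CPM elsewhere. COL5A2 was highest in LNCaP plastic stripped, at 28.5 and 20.8 CPM, and ran from 1.29 to 4.10 CPM in RWPE. Per kilobase, COL5A1 was 2.80 to 9.52 times above COL5A2 in RWPE, and COL5A2 was 2.84 to 14.0 times above COL5A1 in LNCaP. COL27A1 showed the RWPE pattern, with 11.4 to 22.4 CPM there, 0.939 to 6.23 in VCaP and at most 1.49 in LNCaP and 0.730 in MDAPCa2a.

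COL2A1, the fibrillar collagen of cartilage, and COL11A2, a minor chain of cartilage fibrils, were highest in VCaP. COL2A1 was 22.1 and 8.05 CPM in VCaP plastic control, 16.7 in plastic stripped, 4.74 and 8.03 in ACP control, 5.07 and 7.87 in ACP stripped and 5.02 and 2.06 in ACP androgen. All 9 VCaP libraries were above the 25 others, which reached 1.34 CPM. COL11A2 ran from 0.526 to 4.67 CPM in VCaP and 1.13 to 2.08 in MDAPCa2a, and these lines overlapped. COL2A1 was higher in VCaP than in RWPE by 3.05 ± 0.51 (SE, adjusted p = 1.17e-05) on ACP with androgen.

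COL3A1, the partner of type I collagen in elastic tissues, was kept in LNCaP in every group, with 0.803 to 4.90 CPM. On ACP with androgen it had 280 reads in LNCaP against 2 in RWPE, a ratio of 129.6 with an exact 95% counting interval of 35.6 to 1076 (log2 difference 6.84 ± 0.82 SE, adjusted p = 7.75e-08). In plastic control the same lines differed by -0.12 ± 0.56 (SE, adjusted p = 0.882), since RWPE held 2.79 and 1.34 CPM there.

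Type VI chains set LNCaP and VCaP apart from RWPE and MDAPCa2a. COL6A1 was 173 and 175 CPM in LNCaP plastic control, 224 and 155 in plastic stripped, 58.1 and 109.8 in ACP control, 111 and 103 in ACP stripped and 80.0 and 87.5 in ACP androgen. In VCaP it was 109.9 and 80.1, 167, 43.3 and 67.2, 84.6 and 86.1 and 26.7 and 16.6 CPM in the same order of groups. RWPE libraries ran from 1.76 to 7.61 CPM and MDAPCa2a libraries from 0.127 to 1.25, so neither reached the lowest VCaP library. COL6A2 followed, with 29.5 to 121.5 CPM in LNCaP, 9.11 to 60.3 in VCaP, 0.451 to 4.83 in RWPE and 0.127 to 0.929 in MDAPCa2a.

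Against RWPE on ACP with androgen, COL6A1 was higher by 5.27 ± 0.35 (SE, adjusted p = 2.36e-12) in LNCaP and 3.32 ± 0.34 (SE, adjusted p = 5.66e-09) in VCaP and lower by -2.08 ± 0.51 (SE, adjusted p = 0.00106) in MDAPCa2a. COL6A2 differed by 5.31 ± 0.44 (SE, adjusted p = 1.73e-10), 3.14 ± 0.44 (SE, adjusted p = 9.88e-07) and -1.39 ± 0.65 (SE, adjusted p = 0.0661) in the same lines. Type VI collagen is assembled from COL6A1 and COL6A2 with another, larger chain, most often COL6A3. COL6A3 did not follow its partners: it was at most 0.824 CPM in LNCaP, and in VCaP it was 1.95 and 2.02 CPM in plastic control, 0.0961 in plastic stripped, 0.0470 and 0.173 in ACP control, 0.0975 and 0.0410 in ACP stripped and 3.20 and 2.01 in ACP androgen. COL6A5 and COL6A6, which can take the place of COL6A3, stayed at group means of at most 0.0860 and 0.152 CPM. Per kilobase, COL6A1 was 1.27 to 1.5 times COL6A2 in LNCaP and 1.48 to 2.69 times in VCaP. At lower levels it was 1.05 to 1.64 times in RWPE and, on 12 to 74 COL6A1 reads, 0.490 to 0.975 times in MDAPCa2a.

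Fibril-associated chains, which sit on the surface of fibrils, fell into a RWPE set and a VCaP set. COL12A1 was 13.1 to 40.0 CPM in RWPE and at most 1.69 in LNCaP and VCaP and 4.60 in MDAPCa2a, and COL16A1 was 12.0 to 36.2 CPM in RWPE and at most 7.02 elsewhere. COL9A2, a chain of cartilage fibrils, was highest in VCaP: 35.9 and 50.7 CPM in plastic control, 66.1 in plastic stripped, 30.6 and 52.3 in ACP control, 31.0 and 42.4 in ACP stripped and 148 and 35.8 in ACP androgen. The last group rests on 1 library, since its replicate lay within the range of the other VCaP groups. RWPE had at most 1.11 CPM, LNCaP 6.89 and MDAPCa2a 8.13.

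COL9A2 was higher than in RWPE in all 3 tumour lines on ACP with androgen, by 3.99 ± 0.58 (SE, adjusted p = 1.57e-06) in LNCaP, 8.19 ± 0.56 (SE, adjusted p = 4.76e-12) in VCaP and 4.42 ± 0.58 (SE, adjusted p = 3.59e-07) in MDAPCa2a. Its partner COL9A1 was above 0.263 CPM only in VCaP plastic stripped (4.85 CPM) and ACP stripped (1.32 and 3.73). The other partner, COL9A3, varied little, from 1.22 to 6.88 CPM over all libraries, and it overlaps TCFL5 on the opposite strand, a gene at 10.2 to 68.7 CPM. COL14A1 reached 5.59 CPM and COL22A1 4.24 CPM in VCaP, against at most 0.212 and 0.936 in the other lines.

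COL18A1, a multiplexin of basement membranes and the precursor of endostatin, was highest in VCaP: 68.6 and 92.8 CPM in plastic control, 100.1 in plastic stripped, 74.1 and 73.0 in ACP control, 72.5 and 60.6 in ACP stripped and 23.1 and 23.9 in ACP androgen. RWPE ran from 5.82 to 31.4 CPM, LNCaP from 11.6 to 42.9 and MDAPCa2a from 1.14 to 3.32. MDAPCa2a was thus below every library of the other lines. COL26A1 was 0.0531 to 0.272 CPM in RWPE against 2.79 to 17.1 in the other lines, and differed from RWPE on ACP with androgen by 4.69 ± 0.43 (SE, adjusted p = 8.36e-10) in LNCaP, 5.61 ± 0.42 (SE, adjusted p = 2.27e-11) in VCaP and 5.71 ± 0.42 (SE, adjusted p = 1.92e-11) in MDAPCa2a. COL8A1 and COL8A2, chains of a hexagonal network, reached 6.90 and 3.89 CPM, the first in RWPE plastic control and the second in VCaP plastic stripped.

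The 12 members under 1 CPM in every group had 7 to 166 reads over all 34 libraries. COL5A3, at 0.806 CPM in RWPE plastic control, COL24A1, at 0.546 CPM in MDAPCa2a ACP androgen, and COL10A1, at 0.414 ± 0.539 CPM in LNCaP ACP androgen, had the highest group means after COL13A1 and COL25A1 are set aside, and COL10A1 rests on 1 library. COL15A1 reached 0.318 CPM in MDAPCa2a plastic control. COL11A1, COL20A1 and COL6A5 were above the limit in 1 group each, COL21A1 and COL6A6 in 2, and COL19A1 in none. Between lines, COL24A1 was higher in LNCaP and MDAPCa2a than in RWPE. On ACP with androgen RWPE had 0 reads against 16 in LNCaP and 20 in MDAPCa2a, at least 4.94-fold and 9.87-fold higher against a floor of 3 reads over the group (adjusted p = 0.00142 and 0.00017 by edgeR). In plastic control 1 read in RWPE stood against 26 and 28, ratios of 21.7 and 31.0 with exact 95% counting intervals of 3.56 to 888.6 and 5.12 to 1266. These 4 calls were kept under every alternative run. COL13A1 was lower in MDAPCa2a than in RWPE in plastic control, with 0 reads against 15, at least 4.52-fold lower against the same floor (adjusted p = 0.00726 by edgeR), a call kept under every alternative run as well. COL10A1 and COL13A1 were called higher in LNCaP on ACP with androgen (adjusted p = 0.0431 and 0.0321 by edgeR) and COL15A1 lower in VCaP in plastic control (adjusted p = 0.0493), and these 3 calls were lost with DESeq2, without the count filter and without at least 1 of the libraries.

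Compared with RWPE on ACP with androgen, 27 of 37 tested members differed in LNCaP, where 66.9% of all genes did, with 12 higher and 15 lower. In VCaP 25 of 37 differed, 12 higher and 13 lower, against 67.4% of all genes, and in MDAPCa2a 23 of 37, 7 higher and 16 lower, against 64.0%. In plastic control 19 of 37 differed in LNCaP, 6 higher and 13 lower (57.4% of all genes), and 26 in VCaP, 12 higher and 14 lower (62.4%). In MDAPCa2a 28 differed there, 6 higher and 22 lower, which is 75.7% of the members against 56.7% of all genes. In the other 5 comparisons the share of members called was 51.4% to 73%. The median log2 difference of the members on ACP with androgen was -0.13 in LNCaP, -0.04 in VCaP and -1.63 in MDAPCa2a, against -0.05, -0.04 and -0.09 over all genes. In plastic control it was -0.42 in LNCaP, 0.03 in VCaP and -2.45 in MDAPCa2a, against 0.01, 0.04 and -0.0026 over all genes. COL17A1, COL7A1, COL4A1, COL4A2, COL4A6, COL5A1, COL5A3, COL12A1, COL16A1, COL27A1 and COL8A1 were lower than in RWPE in all 6 comparisons, and COL9A2 and COL26A1 were higher in all 6. Of these calls, those of COL5A3 in all 6 comparisons but LNCaP on ACP with androgen, and of COL4A2 and COL27A1 in VCaP on ACP with androgen, were lost without some 1 library. For COL27A1 (-1.54 ± 0.56 SE, adjusted p = 0.0186) it was VCaP ACP androgen replicate 2, and the value ran from -2.36 to -0.94.

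The genes that serve collagen chains were followed in 3 lists: 19 for chain modification and folding, 13 for procollagen processing and crosslinking, and 9 receptors. In LNCaP against RWPE on ACP with androgen, 15 of 19 tested chain modification genes differed, 5 higher and 10 lower, where 66.9% of all genes were called. The largest fall was that of SERPINH1, the collagen chaperone HSP47, with a log2 difference of -8.59, from 131 CPM to 0.331. Over all groups SERPINH1 was 0.0715 to 2.32 CPM in LNCaP libraries, 121 to 194 in RWPE, 21.7 to 54.6 in VCaP and 45.6 to 96.7 in MDAPCa2a, so the line with the most type VI RNA had the least of this chaperone. In VCaP 12 of 19 differed (5 higher, 7 lower), against 67.4% of all genes, and in MDAPCa2a 15 of 19 (8 higher, 7 lower), against 64.0%. Of 13 processing genes, 7 were lower and none higher in LNCaP, 4 were higher and 4 lower in VCaP, and 2 were higher and 5 lower in MDAPCa2a. Of 7 tested receptors, 5 differed in each line, and MRC2, an endocytic collagen receptor, had the largest fall in all 3, with log2 differences of -6.18 in VCaP, -6.77 in MDAPCa2a and -9.17 in LNCaP.

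The surface was compared in control medium, where plastic control is the reference. In RWPE, 3 of 26 tested members were lower on ACP and none higher, against 4.16% of all genes called. COL3A1 went from 2.79 and 1.34 CPM to 0 and 0.0487, COL1A2 from 1.30 and 1.06 to 0 and 0.0974, and COL4A1 from 42.6 and 61.2 to 26.1 and 18.5. The groups did not overlap for any of the 3. The log2 change was -1.19 ± 0.27 (SE, adjusted p = 0.036) for COL4A1. For COL3A1 158 reads stood against 1, a ratio of 102 with an exact 95% counting interval of 18.1 to 4057 (adjusted p = 0.0104 by edgeR), and for COL1A2 91 reads against 2, a ratio of 29.4 with an interval of 7.91 to 246 (adjusted p = 0.0317). COL4A2, the partner of COL4A1, went from 90.7 ± 22.1 to 46.0 ± 8.53 CPM and did not pass, with a log2 change of -0.95 ± 0.27 (SE, adjusted p = 0.0758). Without RWPE plastic control replicate 2, 1 of the 3 calls was left, and without either ACP control library or plastic control replicate 1 none was.

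In LNCaP on ACP in control medium, 9 of 27 tested members were lower and none higher, while 12.6% of all genes were called and 5.85% were lower. They were COL1A1, COL1A2 and COL11A2 among fibrillar chains, COL4A1 and COL4A5, COL6A1 and COL6A3, COL12A1 and COL7A1. COL7A1 went from 7.75 and 8.74 to 2.18 and 0.986 CPM (-2.27 ± 0.48 SE, adjusted p = 0.0169), COL1A1 from 22.2 and 17.9 to 8.51 and 11.1 (-0.93 ± 0.19 SE, adjusted p = 0.0159) and COL4A5 from 56.4 and 54.5 to 33.4 and 34.5 (-0.60 ± 0.15 SE, adjusted p = 0.0285). In these 3 genes every ACP library was below both plastic libraries. COL6A1 went from 173 and 175 to 58.1 and 109.8 CPM (-0.96 ± 0.24 SE, adjusted p = 0.0285). COL6A3 went from 56 reads to 0, at least 11.2-fold lower against a floor of 3 reads over the group, and COL1A2 from 82 reads to 2, a ratio of 24.5 with an exact 95% counting interval of 6.57 to 206. The median log2 change over the 27 members was -0.92, against 0.02 over all genes. These calls rest on few libraries: none was left without either plastic control library, 1 was left without ACP control replicate 1, and 11 members were called without ACP control replicate 2. The share of all genes called in these refits is not given here.

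In VCaP on ACP in control medium none of 31 tested members passed in edgeR, where 0.0448% of all genes did. An unadjusted edgeR p under 0.05 was met by 7 of the 31 members and 1123 of all 15614 genes tested. DESeq2 called 1 member there. The lowest p belonged to COL6A3, which was 1.95 and 2.02 CPM on plastic and 0.0470 and 0.173 on ACP (-4.05 ± 0.70 SE, adjusted p = 0.159).

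Stripped serum gave a comparison of surfaces without plastic control libraries. In LNCaP, 1 of 27 members was called, against 6.12% of all genes: COL1A1 was lower on ACP, at 15.0 and 12.3 CPM against 29.5 and 24.3 on plastic (-0.94 ± 0.19 SE, adjusted p = 0.0198). The call was lost without LNCaP plastic stripped replicate 1 or either ACP stripped library. In VCaP none of 31 and in MDAPCa2a none of 22 members passed in edgeR, against 0% and 0.00734% of all genes. An unadjusted edgeR p under 0.05 was met by 3 of 31 members and 511 of all 15614 genes in VCaP. In MDAPCa2a it was met by 5 of 22 members and 2071 of all 13626 genes. DESeq2 called 0 and 3 members in these lines, and its share of all genes called is not given here. The VCaP comparison has 1 plastic library, which is assumed to vary like the other groups. In MDAPCa2a, COL4A6 was 8.08 and 8.19 CPM on ACP and 16.7 and 20.5 on FNC-coated plastic (-1.11 ± 0.21 SE, adjusted p = 0.14), and COL5A2 was 1.27 and 2.15 and 6.37 and 7.87 (-1.97 ± 0.32 SE, adjusted p = 0.128). The groups of both genes did not overlap, and neither passed the adjusted threshold. The surface effects of LNCaP and MDAPCa2a in stripped serum differed for none of 37 members in edgeR, against 0.358% of all genes. An unadjusted edgeR p under 0.05 was met by 3 of the 37 members and 1618 of all 17323 genes. DESeq2 called none of the members.

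The plastic control libraries had a feature in common. COL1A2, COL4A1 and COL25A1, 3 of the 38 members with at least 34 reads, were higher in both plastic control libraries than in every other library of the line, in all 4 lines. The same held for 240 of 18039 genes, 1.33%. COL1A2 was 0.750 to 1.76 CPM in the 8 plastic control libraries and 0 to 0.176 CPM in the 26 others, of which 12 had 0 reads. COL25A1 was 0.145 to 0.371 CPM against 0 to 0.135, with 18 of 26 at 0 reads. COL4A1 was 0.496 to 1.25 CPM in the tumour lines' plastic control libraries against 0 to 0.307 in their other libraries. COL3A1, COL5A1, COL12A1, COL16A1 and COL8A1 met the condition in 3 lines, and how many of all genes do so is not given here. The plot of these genes by library shows both sets of values for COL1A2, COL4A1, COL25A1 and COL3A1.

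Among markers of other cell types, hepatocyte genes moved with plastic control as well. Of 6 hepatocyte genes, 4 met the same condition in all 4 lines, and the summed level of the list was 14.3 to 15.3 CPM in RWPE plastic control against 0 to 0.587 in other RWPE libraries. It was 13.0 to 18.9 against 1.78 to 7.18 CPM in LNCaP, 6.87 to 12.6 against 0 to 0.688 in MDAPCa2a, and 71.0 to 159 against 35.7 to 379 in VCaP. Of 10 fibroblast genes none met the condition in all lines. Their sum was 5.89 to 6.17 CPM in RWPE plastic control against 2.00 to 4.04 in other RWPE libraries, and 3 of the 10 were at 0 reads in all of those others. In the other lines the sums of plastic control lay within those of the other libraries, at 2.94 to 3.63 against 2.04 to 4.95 CPM in LNCaP, 17.3 to 41.6 against 11.0 to 159 in VCaP and 2.12 to 4.31 against 0.636 to 4.41 in MDAPCa2a. Of 6 smooth muscle and 5 endothelial genes none met the condition in all lines either. In MDAPCa2a the smooth muscle list summed to 4.14 to 5.92 CPM in plastic control against 1.83 to 2.23 in its other libraries. Its endothelial list summed to 1.02 to 2.11 CPM against 0.354 to 0.802. In RWPE, LNCaP and VCaP the sums of both lists overlapped. The part of RNA from other cells in the higher COL1A2, COL3A1, COL4A1 and COL25A1 of plastic control was not tested. Culture time and surface both differ between plastic control and ACP control as labelled, and cannot be told apart. Comparisons of ACP with plastic in control medium and of stripped with control serum on plastic share these libraries.

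**Figure D3:**
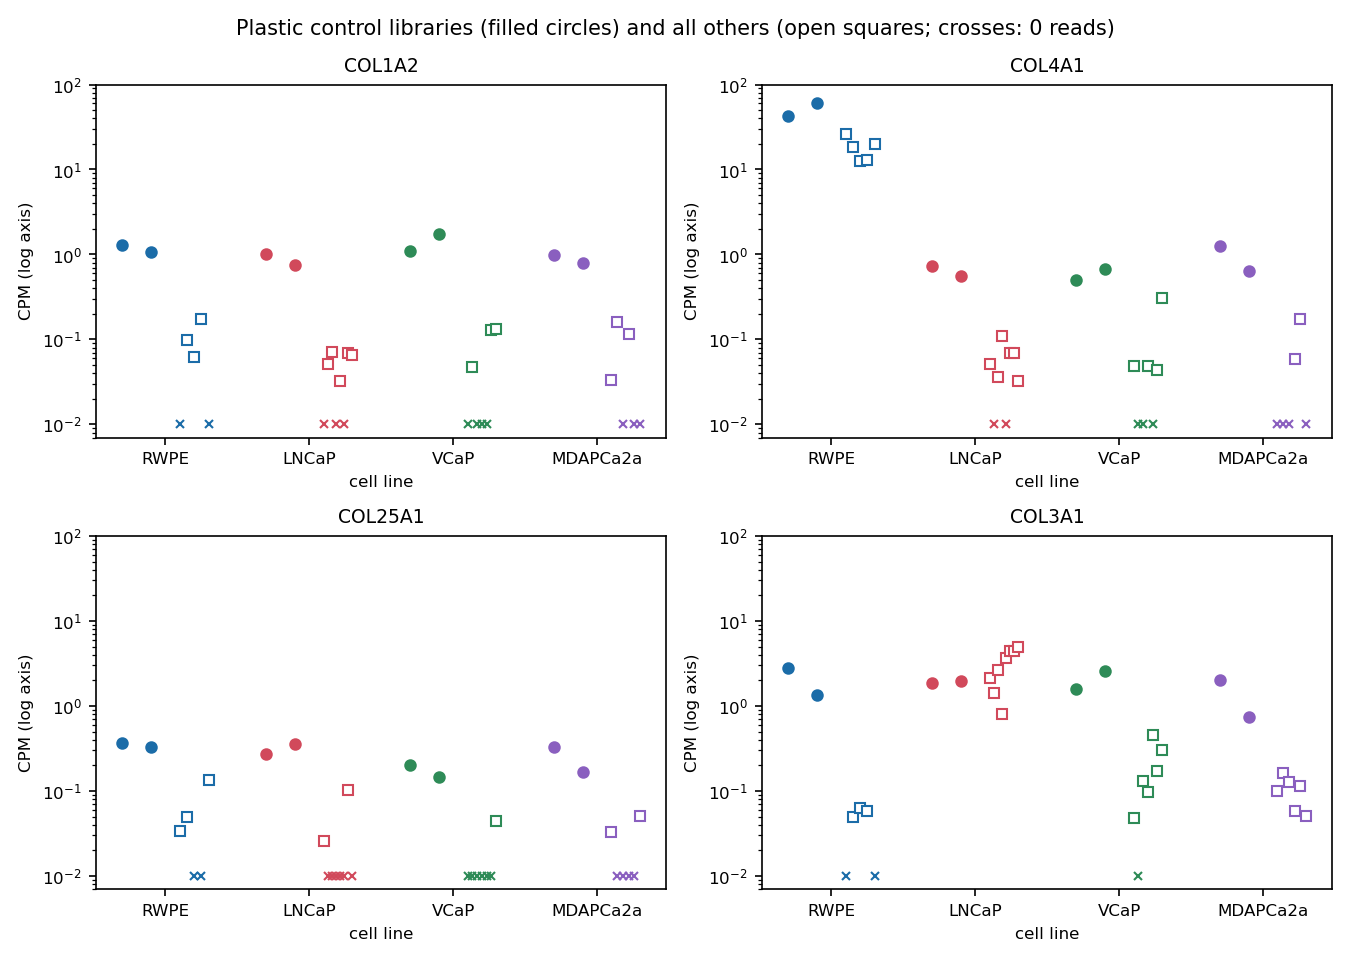
Level in CPM of COL1A2, COL4A1, COL25A1 and COL3A1, 1 panel each, in every library by line, on a log axis. Filled circles are plastic control libraries, open squares the other libraries and crosses libraries with 0 reads. COL1A2 lies at 0.750 to 1.76 CPM in the plastic control libraries of all lines and at or below 0.176 CPM elsewhere, while COL3A1 of LNCaP is at 0.803 to 4.90 CPM in all groups.

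Stripped against control serum on plastic moved 6 of 27 tested members in LNCaP, against 9.45% of all genes. Plastic control is labelled continuous culture and plastic stripped day 4. Serum and culture time therefore cannot be told apart in this comparison, whether in LNCaP, MDAPCa2a or VCaP. COL5A2, a minor chain of type I fibrils, rose from 4.37 and 3.91 to 28.5 and 20.8 CPM (2.62 ± 0.29 SE, adjusted p = 0.000475). Its partner COL5A1 was 1.31 and 2.21 and 4.41 and 3.11 CPM and did not pass (1.15 ± 0.57 SE, adjusted p = 0.241). COL7A1 fell from 7.75 and 8.74 to 2.13 and 2.04 CPM (-1.93 ± 0.47 SE, adjusted p = 0.0265) and COL12A1 from 1.18 and 1.10 to 0.231 and 0.102 (-2.60 ± 0.62 SE, adjusted p = 0.0249). COL1A2, COL4A1 and COL6A3 fell too, from 82, 60 and 56 reads to 1, 2 and 1, which are ratios of 51.9, 19.0 and 35.4 with exact 95% counting intervals of 9.05 to 2073, 5.03 to 160.3 and 6.10 to 1424. All 5 falls are from plastic control. The rise of COL5A2 was called whichever of the 4 libraries was left out (log2 change 2.42 to 2.78). Without LNCaP plastic stripped replicate 2, 2 members were called, and without any other of the 4 libraries 1 was.

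On ACP, stripped against control serum moved 1 of 27 members in LNCaP, against 5.37% of all genes. It was again COL5A2, which rose from 4.22 and 2.96 to 9.83 and 14.4 CPM (1.73 ± 0.30 SE, adjusted p = 0.00754), a comparison without plastic control libraries. The call was lost without LNCaP ACP stripped replicate 2, and the number called was 2 when ACP control replicate 1 was left out and 5 when replicate 2 was. COL5A1 stood at 0.143 and 1.06 and 3.27 and 2.35 CPM (2.21 ± 0.65 SE, adjusted p = 0.0755).

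In MDAPCa2a on plastic, stripped against control serum moved 4 of 22 members, against 1.58% of all genes. COL4A6 rose from 4.85 and 4.88 to 16.7 and 20.5 CPM (1.97 ± 0.21 SE, adjusted p = 0.00815) and its partner COL4A5 from 80.6 and 75.3 to 119 and 149.6 (0.82 ± 0.16 SE, adjusted p = 0.0484). COL9A3 rose from 1.96 and 1.52 to 5.84 and 4.32 CPM (1.58 ± 0.30 SE, adjusted p = 0.0416). COL5A1 fell from 1.07 and 0.855 to 0.0996 and 0.0404 CPM (-3.61 ± 0.71 SE, adjusted p = 0.0463), on 67 and 4 reads. The stripped libraries of the first 3 genes were all above those of control, and those of COL5A1 below. Without MDAPCa2a plastic stripped replicate 1 a single call was left, COL4A6, and without any other of the 4 libraries none was.

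In VCaP on plastic, 1 of 31 members was called, against 0.890% of all genes. COL9A1, a chain of cartilage fibrils, was 0.0292 and 0.120 CPM in control and 4.85 in the 1 stripped library (5.92 ± 0.96 SE, adjusted p = 0.0473). The call was lost without VCaP plastic control replicate 1 and under RLE size factors. On ACP none of 31 VCaP members passed in edgeR, where 0.820% of all genes did, and DESeq2 called 1 member. An unadjusted edgeR p under 0.05 was met by 5 of the 31 members and 2585 of all 15614 genes. COL9A1 stood there at 0.0470 and 0.259 CPM in control and 1.32 and 3.73 in stripped serum (4.00 ± 0.87 SE, adjusted p = 0.0612), and these groups did not overlap.

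In RWPE, androgen medium on ACP was compared with control medium, since the line has no stripped group. The androgen medium holds stripped serum and the RWPE control medium is serum-free, so serum and androgen cannot be told apart. Of 26 tested members 7 fell and none rose, while 19.1% of all genes were called and 8.05% fell. COL5A1 fell from 20.3 and 19.8 to 5.45, 7.17 and 4.65 CPM (-1.78 ± 0.21 SE, adjusted p = 0.0147), COL17A1 from 1199 and 959 to 377, 646 and 565 (-1.0 ± 0.23 SE, adjusted p = 0.0206) and COL7A1 from 198 and 209 to 118, 87.3 and 94.7 (-1.01 ± 0.18 SE, adjusted p = 0.017). All 3 androgen libraries lay below both control libraries for each of these genes.

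COL18A1 fell from 26.3 and 19.8 to 5.82, 9.81 and 13.0 CPM (-1.24 ± 0.27 SE, adjusted p = 0.0188). COL1A1 (-0.65 on the log2 scale), COL27A1 (-0.70) and COL6A1 (-1.14) made up the other calls, again without overlap of the groups. COL4A1 and COL4A2 did not pass, at -0.54 ± 0.24 (SE, adjusted p = 0.135) and -0.66 ± 0.25 (SE, adjusted p = 0.0829). The median log2 change over the 26 members was -0.66, against -0.02 over all genes. The calls hang on the 2 control libraries: none was left without either, while 6, 7 and 14 were called without androgen replicates 1, 2 and 3. The share of all genes called in these refits is not given here. The COL17A1 call was also lost in a fit of all lines. That of COL1A1 was lost there, in a fit without plastic control libraries and without androgen replicate 2. The summed level of the 5 basal markers was 13517 to 16996 CPM in ACP control, 3727 to 11563 in ACP androgen and 12270 to 12891 in plastic control, with all 5 detected. Its part in the falls of COL17A1 and COL7A1 was not tested, and fewer cells of a type and less RNA per cell cannot be told apart.

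**Figure D4:**
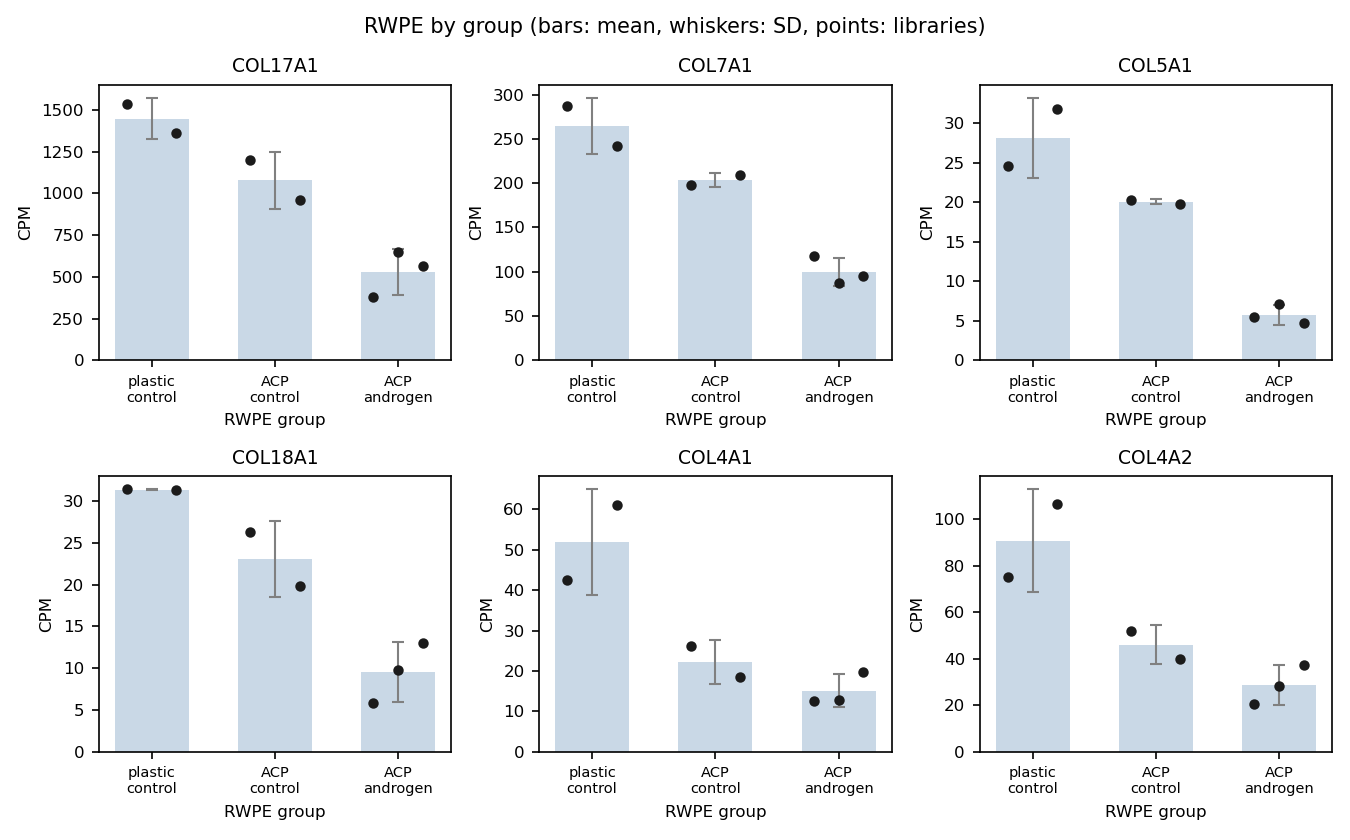
Levels in CPM of COL17A1, COL7A1, COL5A1, COL18A1, COL4A1 and COL4A2 in the 3 RWPE groups, 1 panel each; bars are means, whiskers SD and points libraries. COL17A1 stands at 377 to 646 CPM in the 3 androgen libraries and at 959 to 1199 CPM in the 2 ACP control libraries, and plastic control is higher than ACP control in each panel's mean.

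Androgen against stripped serum on ACP moved 9 of 31 members in VCaP, 1 up and 8 down, while 17.5% of all genes were called and 8.80% were lower. COL18A1 fell from 72.5 and 60.6 to 23.1 and 23.9 CPM (-1.50 ± 0.20 SE, adjusted p = 0.00244), and COL6A1 from 84.6 and 86.1 to 26.7 and 16.6 (-1.98 ± 0.29 SE, adjusted p = 0.00322). COL6A2 fell with its partner, from 31.9 and 22.5 to 14.8 and 9.11 CPM (-1.19 ± 0.31 SE, adjusted p = 0.0292). In each of the 3 both androgen libraries were below both stripped ones. COL5A2 fell by -2.07 on the log2 scale, which is 5.33 and 5.36 CPM against 0.866 and 1.66, and COL9A1 by -3.66, from 1.32 and 3.73 to 0.130 and 0.263 CPM. COL11A2, COL28A1 and COL8A2 fell as well, by -2.26, -2.12 and -2.51.

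COL6A3 moved against its partners in VCaP, from 3 reads to 120 (0.0975 and 0.0410 CPM to 3.20 and 2.01), a ratio of 39.1 with an exact 95% counting interval of 13.1 to 192 and an adjusted p of 0.00312 in edgeR. Its level in VCaP plastic control was 1.95 and 2.02 CPM, near that with androgen. Markers of other cell types moved in these libraries too. The smooth muscle list summed to 17.1 to 35.9 CPM with androgen against 4.00 to 4.47 in stripped serum, mostly through RGS5, and the endothelial list to 12.2 CPM in both androgen libraries against 0.683 to 1.60, through PECAM1 and VWF with CDH5 and EMCN at 0. The fibroblast list summed to 11.0 and 44.9 CPM with androgen and 44.7 and 159 in stripped serum, which overlap. In it LUM was 1.26 and 4.12 CPM with androgen against 36.7 and 152.6, FBN1 was 9.0 and 40.4 against 5.80 and 3.11, and FAP, THY1, DPT, POSTN and PRRX1 were at 0. Their part in the COL6A3 difference was not tested.

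The calls of COL6A1, COL6A3 and COL18A1 in VCaP held whichever library was left out, with log2 changes of -2.34 to -1.68, 4.68 to 5.88 and -1.63 to -1.32. The number of members called was 4 without VCaP ACP stripped replicate 1 or ACP androgen replicate 1, 5 without ACP androgen replicate 2 and 6 without ACP stripped replicate 2. The median log2 change over the 31 members was -0.76, against -0.03 over all genes.

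In LNCaP, 4 of 27 members were called, 2 in each direction, against 7.73% of all genes. COL5A2 fell from 9.83 and 14.4 to 4.08 and 6.50 CPM (-1.21 ± 0.29 SE, adjusted p = 0.0284) and COL5A1 from 3.27 and 2.35 to 0.242 and 0.653 (-2.65 ± 0.66 SE, adjusted p = 0.0344). COL4A5 rose from 29.9 and 33.9 to 54.1 and 44.1 CPM (0.61 ± 0.15 SE, adjusted p = 0.0344) and COL23A1 from 0.388 and 0.525 to 1.83 and 1.47 (1.83 ± 0.42 SE, adjusted p = 0.0253). None of the 4 genes had overlapping groups. COL5A2 in LNCaP on ACP was thus higher in stripped serum than in both control and androgen medium, 2 comparisons that share the stripped libraries. None of the 4 calls was left without either stripped library or androgen replicate 1, and 5 members were called without androgen replicate 2. COL6A1 did not pass, at -0.37 ± 0.24 (SE, adjusted p = 0.383).

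In MDAPCa2a none of 22 members and 0% of all genes passed in edgeR, and none of the 22 had an unadjusted p under 0.05, as 236 genes did. DESeq2 called none of the members. COL18A1 had the lowest p, at 1.14 and 2.03 CPM in stripped and 2.35 and 2.53 in androgen medium (0.58 ± 0.33 SE, adjusted p = 0.968). COL4A5, at 101 and 97.3 and 95.1 and 90.9 CPM, differed by -0.14 ± 0.16 (SE, adjusted p = 0.968).

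**Figure D5:**
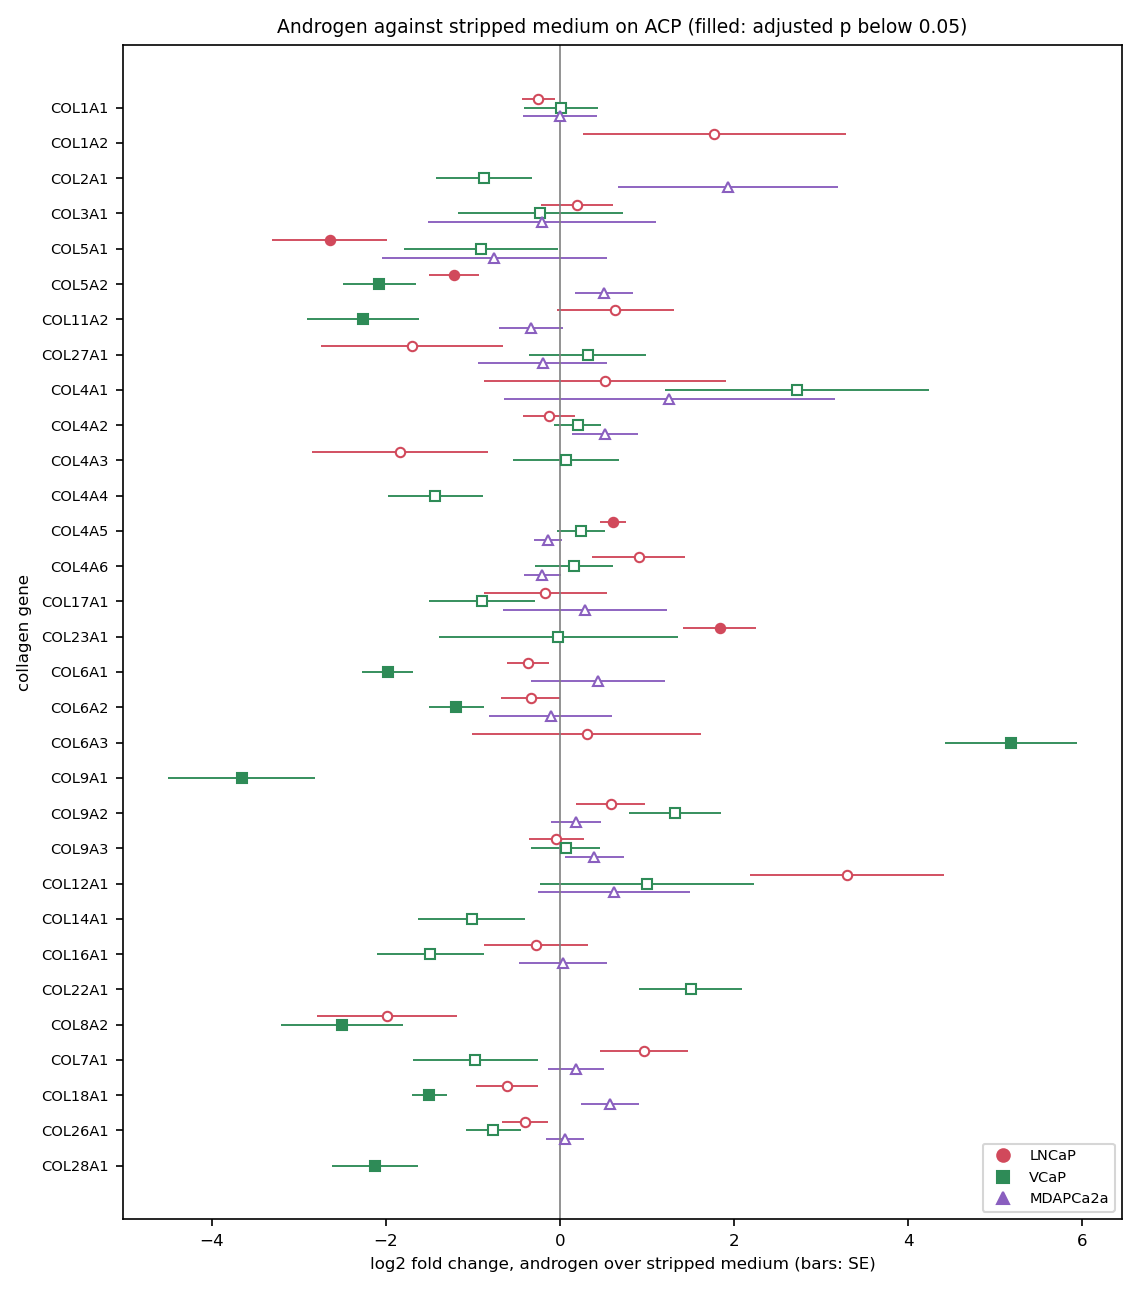
Log2 change with its standard error for androgen against stripped serum on ACP, for collagen genes of at least 1 CPM in some group, with circles for LNCaP, squares for VCaP and triangles for MDAPCa2a; filled points have an adjusted p below 0.05, and genes with 0 reads in a group are left out. VCaP has 8 filled points below 0 and COL6A3 at 5.18 above it, LNCaP 2 on each side and MDAPCa2a none.

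The difference between the androgen effects of VCaP and LNCaP was tested itself. It passed for 2 of 37 members, against 10.9% of all genes: COL6A1 (-1.62 ± 0.46 SE, adjusted p = 0.0235) and COL11A2 (-2.91 ± 0.89 SE, adjusted p = 0.0355). In both the androgen effect was the lower one in VCaP, and this test does not compare levels. For COL6A3 the difference was 4.87 ± 1.66 (SE, adjusted p = 0.0626), for COL18A1 -0.91 ± 0.47 (SE, adjusted p = 0.229) and for COL5A2 -0.88 ± 0.49 (SE, adjusted p = 0.275), none past the threshold. The COL6A1 call was lost without LNCaP ACP stripped replicate 1 or 2, LNCaP ACP androgen replicate 2, VCaP ACP stripped replicate 1 or VCaP ACP androgen replicate 2, with values from -2.0 to -1.35. The COL11A2 call was lost without any one of the 8 libraries except VCaP ACP androgen replicate 1, with values from -3.56 to -2.50. In LNCaP it rests on 4 and 6 COL11A2 reads in the stripped libraries and 6 and 10 in the androgen libraries.

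The genes that modify and process the chains moved in part with these media. In VCaP with androgen, 5 of 19 chain modification genes rose and none fell, where 17.5% of all genes were called, led by P4HA2, a prolyl 4-hydroxylase, at 1.78 on the log2 scale. Of 11 tested processing genes LOX, the enzyme that crosslinks collagen, rose by 3.86, while PCOLCE2 (-2.26), an enhancer of procollagen cleavage, and TLL2 (-1.63), a tolloid protease, fell. Of 7 receptors DDR2 rose by 4.01 and ITGA1 fell by 1.28. In LNCaP with androgen, where 7.73% of all genes were called, 2 of 19 chain modification genes fell, led by COLGALT2 (-1.66), 2 of 9 processing genes fell, led by TLL1 (-3.64), and none of 5 receptors was called. TLL1 and TLL2 were higher in stripped than in control medium in LNCaP, by 2.44 and 1.46 on plastic and 2.30 and 1.47 on ACP. In RWPE with androgen medium, where 19.1% of all genes were called, 3 of 17 chain modification genes rose and 1 fell, led by TMEM38B (1.31) and P4HA2 (-0.57), 2 of 10 processing genes fell, led by BMP1 (-0.80), the procollagen C-proteinase, and 2 of 4 receptors fell, DDR1 (-1.01) and MRC2 (-0.99).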

How the data were processed

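The authors deposited 1 table of whole-number read counts, not normalized, with 26336 gene symbols in rows and 34 libraries in columns. The submitters' processing notes name STAR, HTSeq and hg19, without versions. Neither the gene annotation nor the strand setting is given in the sources used here. Libraries were grouped by line, surface and medium as labelled. Genes were tested with edgeR 4.0.16 in R 4.3.3 (quasi-likelihood F test, TMM, filterByExpr with a minimum count of 10, Benjamini-Hochberg over all genes tested). Comparisons within a line used a fit of that line, and comparisons of lines or of effects used a fit of all libraries. The fit of all lines tested 37 members, and the fits of single lines 31 (VCaP), 27 (LNCaP), 26 (RWPE) and 22 (MDAPCa2a). Levels per kilobase use the longest protein-coding transcript (GENCODE, GRCh38), and promoter windows come from RefSeq (GRCh38.p14), read with Python 3.11.15. The steps were tested on simulated counts.

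The members, gene lists and markers were chosen with earlier results of these data known. Every member could be described by level, those of at least 1 CPM in some group with values; members past the threshold could be named, partner chains together, and of each list the largest rise and fall. Alternatives were RLE size factors, no count filter, a replicate block, DESeq2 1.42.0, each library left out, a fit of all lines, omission of members under 0.5% of another line's level, and, chosen after seeing the data, a fit without plastic control libraries.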

Additional observations from a re-analysis of the deposited data

Results flagged for a closer look

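The androgen effect on ACP differed between VCaP and LNCaP by a test of the difference itself (edgeR, fit of all lines) for COL11A2, with a log2 difference of -2.91 (adjusted p = 0.0355), and for COL6A1, with -1.62 (adjusted p = 0.0235). Both calls were lost when some single libraries were left out, that of COL11A2 in 7 such refits. COL11A2 had 4 and 6 reads in the LNCaP stripped libraries and 6 and 10 in the LNCaP androgen libraries.

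For the following genes the groups of a line, with 2 libraries each, did not overlap in one direction. Those of another line did not overlap in the opposite direction under the same contrast. The differences were not tested, and how many of all genes do the same is not given here. With androgen on ACP, the log2 change of COL18A1 was -0.61 in LNCaP and -1.50 in VCaP but 0.58 in MDAPCa2a, and that of COL4A5 was 0.61 in LNCaP and -0.14 in MDAPCa2a. On ACP against plastic in control medium, COL4A5 changed by -0.60 in LNCaP and 0.25 in RWPE. In stripped against control serum on plastic, COL4A5 changed by -0.38 in LNCaP and 0.82 in MDAPCa2a, COL4A6 by -1.21 and 1.97, and COL5A1 by 1.15 and -3.61. In stripped against control serum on ACP, COL5A2 changed by 1.73 in LNCaP and -0.39 in VCaP. Of these changes, those of COL18A1 in VCaP, of COL4A5 with androgen and by surface in LNCaP, and of COL5A2 in LNCaP passed the adjusted threshold. Those of COL4A5, COL4A6 and COL5A1 in MDAPCa2a on plastic passed too. The others did not pass, among them both changes of MDAPCa2a with androgen.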

How the results depend on the processing

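Counts of collagen genes past the threshold between lines stayed within 1.5 times under every alternative run: without 1 library they were 22 to 25, 21 to 25 and 22 to 23 for LNCaP, VCaP and MDAPCa2a against RWPE on ACP with androgen, and 18 to 20, 23 to 26 and 24 to 25 in plastic control. Counts within lines moved, and the cause was not tested, except that leaving out a library leaves fewer samples and dropping the count filter tests more genes. The share of all genes called under each alternative is not given here. Without the count filter the counts became 5 for RWPE, 14 for LNCaP and 3 for VCaP on ACP against plastic in control medium, 5 for LNCaP and 4 for MDAPCa2a in stripped serum, 5 for VCaP and 7 for MDAPCa2a for stripped serum on plastic, 4 for LNCaP and 1 for VCaP for stripped serum on ACP, and 4 for the difference of androgen effects. With DESeq2 they became 6 for RWPE and 1 for VCaP on ACP in control medium, 3 for LNCaP and 3 for MDAPCa2a on ACP in stripped serum, 3 for VCaP for stripped serum on plastic, and 2 for LNCaP and 1 for VCaP on ACP. In the fit of all lines they became 4 for VCaP on ACP in control medium, 0 for LNCaP and 2 for MDAPCa2a in stripped serum, 5 and 1 for VCaP for stripped serum on plastic and on ACP, 2 for androgen in LNCaP and 4 in RWPE. RLE size factors gave 0 for VCaP for stripped serum on plastic, and a fit without plastic control libraries gave 1 for VCaP for stripped serum on ACP and 2 for androgen in LNCaP. Leaving out members under the carry-over limit changed none of these counts.

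Without 1 library the counts ran from 0 to 1 for RWPE and 0 to 11 for LNCaP on ACP in control medium, 0 to 1 for LNCaP and 0 to 1 for MDAPCa2a on ACP in stripped serum, 1 to 2 for LNCaP, 0 to 1 for VCaP and 0 to 1 for MDAPCa2a for stripped serum on plastic, 0 to 5 for LNCaP for stripped serum on ACP, 0 to 5 for LNCaP, 4 to 6 for VCaP and 0 to 14 for RWPE with androgen, and 0 to 3 for the difference of androgen effects. Of 195 calls of single genes, 127 were kept under each of their alternatives and none was reversed.

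The main tests took same-numbered libraries as unpaired. Of 25 pairs of groups, 8 had a correlation above 0.1 between same-numbered deviations, with a range of -0.52 to 0.62. It was 0.62 for MDAPCa2a ACP stripped with ACP androgen and 0.51 for LNCaP plastic stripped with ACP stripped. In MDAPCa2a it was -0.47 for plastic control with plastic stripped and -0.44 for plastic stripped with ACP stripped. Whether libraries of different groups share a batch was not tested. With a replicate block the counts became 6 for RWPE on ACP in control medium, 2 for MDAPCa2a for stripped serum on plastic, 1 for VCaP for stripped serum on ACP and 14 for androgen medium in RWPE. Of the 195 calls of single genes, 8 were lost with the block, among them COL4A2 in VCaP and COL1A1 in LNCaP against RWPE on ACP with androgen (log2 -0.51 and -0.57, edgeR adjusted p = 0.0744 and 0.108). Depth limits the members under 1 CPM, the number of members at or under the limit and the partner ratios that rest on few reads.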
